A study of Mus musculus with 14 samples.

Results

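The collagen, laminin and Adamts genes were taken as all autosomal protein-coding genes of the mouse build mm10 whose symbol begins with Col and a digit, with Lama, Lamb or Lamc and a digit, or with Adamts. The rule found 77 of 20665 genes, which were 42 collagens, 11 laminins and 24 Adamts genes, of which 19 encode proteases and 5 encode Adamts-like proteins. The X-linked Col4a5 and Col4a6, 2 genes in all, were left out. A gene was called marked in a library where a called peak came within 1 kb of the gene's start or end, by an overlap of at least 1 bp.

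Collagens are triple-helical proteins that build the fibrils, networks and filaments of the extracellular matrix. Laminins are trimers of an alpha, a beta and a gamma chain that lay down basement membranes, and Adamts proteases are secreted metalloproteases that process procollagens, proteoglycans and von Willebrand factor, while Adamts-like proteins lack the protease domain. H3K27me3 is the trimethyl mark set on histone H3 by Polycomb repressive complex PRC2, of which Ezh2 is the catalytic subunit and Suz12 a core subunit. Ring1b is the ubiquitin ligase of PRC1, a second Polycomb complex, and genes under H3K27me3 are usually silent or expressed at a low level.

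The mark had been mapped by chromatin immunoprecipitation with sequencing in mouse cells whose labels read PDGF Neural Stem Cells and which the design text calls DIPG cells, after a childhood brainstem glioma. Cells of the K27M genotype expressed histone H3.3 with methionine in place of lysine 27, and cells of the H3WT genotype expressed wild-type H3.3. All cells grew on plates coated with poly-D-lysine and laminin in a medium with epidermal and fibroblast growth factors. H3K27me3 peak lists covered 4 groups of 2 libraries, namely K27M cells given 3 µM of the Ezh2 inhibitor EPZ6438 (EPZ) for 12 days, H3WT cells given the same, K27M cells given the solvent DMSO, and H3WT cells given DMSO. For Suz12 and for Ring1b, each genotype had 1 library from DMSO-treated cells. The 2 IgG libraries of H3WT DMSO cells were not analysed here. The labels do not say how the PDGF signal or the histone was delivered, whether a genotype is 1 clone, or whether the replicates are separate cultures. The p-values below therefore rest on differences among libraries that may be technical.

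The lists differed widely in size. On the autosomes, peaks covered 13 and 41.6 Mb in the K27M DMSO libraries of H3K27me3, against 39.2 and 150 Mb in the H3WT DMSO libraries, each pair in the order replicate 1 and replicate 2. The 4 EPZ libraries covered between 1.1 and 2.36 Mb. Read depth was not given in the sources used here, and how far it moved these lengths was not tested. A called region in bulk chromatin does not tell apart a mark in fewer cells from less of the mark in each cell. Of the 7 neural stem and glial progenitor markers examined (Sox2, Nes and others), 0 were marked by H3K27me3 in any list, as were 0 of 4 endothelial, 0 of 4 microglial and 0 of 4 astrocyte markers. Of 5 fibroblast and mesenchymal markers, 4 were marked in H3WT DMSO replicate 2, and of these Twist1 alone was marked in replicate 1 as well. Twist1 was also marked in K27M EPZ replicate 2 and H3WT EPZ replicate 1. Of 3 neuron markers, Tubb3 and Rbfox3 were marked in both H3WT DMSO libraries. Of 3 oligodendrocyte markers, 1 was marked in H3WT replicate 2 alone. Peak lists do not measure expression, so these markers do not show which cells were present.

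H3K27me3 in DMSO lay at the ends of a varying share of the matrix genes. Of the 77 genes, 8 (10.4%, exact 95% interval 4.59 to 19.4%) were marked in K27M DMSO replicate 1 and 20 (26%, 16.6 to 37.2%) in K27M DMSO replicate 2. In H3WT DMSO, 19 (24.7%, 15.6 to 35.8%) were marked in replicate 1 and 39 (50.6%, 39 to 62.2%) in replicate 2. The shares over all 20665 genes were 4.62% and 10% in the K27M libraries, against 10.7% and 20.8% in the H3WT libraries. In each of these 4 lists the share of matrix genes was between 2.25 and 2.6 times the share of all genes, which describes the lists and was not tested. Intervals cover the counting of genes only.

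**Figure D1:**
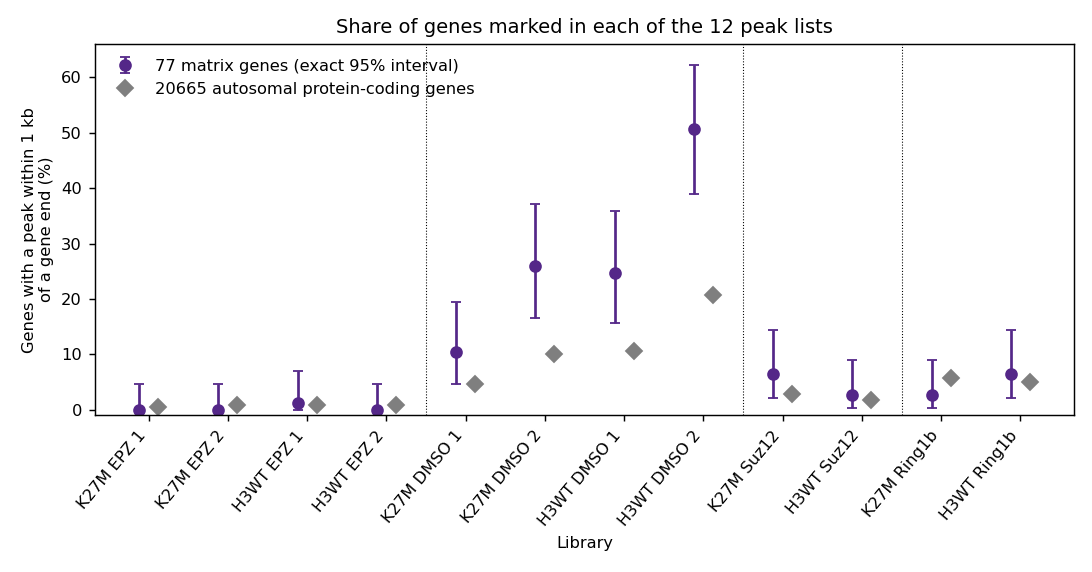
Share of genes (percent, vertical axis) with a peak within 1 kb of a gene end in each of the 12 lists, for the 77 matrix genes (purple points, exact 95% interval) and for all 20665 autosomal protein-coding genes (grey diamonds). The matrix genes stood above all genes in the 4 DMSO lists of H3K27me3, from 10.4% in K27M replicate 1 to 50.6% in H3WT replicate 2, and lay at 0 or 1.3% in the 4 EPZ lists.

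Smaller DMSO lists were largely contained in larger ones. The 8 genes of K27M replicate 1 were all in the other 3 lists, the 20 genes of K27M replicate 2 were all in H3WT replicate 2, and the 19 genes of H3WT replicate 1 were all in H3WT replicate 2 as well. All genes did much the same, at between 98 and 100% in these pairs of lists. K27M replicate 2 and H3WT replicate 1 each held genes that the other did not. A gene marked in both H3WT DMSO libraries is called H3WT-marked, which 19 of 77 matrix genes were, with 10.6% of all genes marked by the same rule. Of these genes, those marked in K27M DMSO by both libraries are called retained, those marked by 1 partial and those marked by 0 lost. The 19 genes split into 8 retained (42.1%), 7 partial (36.8%) and 4 lost (21.1%). All H3WT-marked genes split into 42.8% retained, 38.4% partial and 18.8% lost, so the matrix genes were divided almost as all genes were. The split depends on the replicate: by replicate 1 alone, 8 of 19 marked genes were also marked in K27M and 11 were not, and by replicate 2 alone, 20 of 39 were and 19 were not. Over all genes the shares also marked in K27M were 42.5% by replicate 1 and 47.5% by replicate 2, against 42.1% and 51.3% of the matrix genes. No matrix gene was gained, with both K27M peaks and neither of the H3WT peaks, and 0.0145% of all genes were.

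The retained genes were Col2a1, Col27a1, Col14a1, Col8a2, Col13a1, Col15a1, Adamts2 and Adamts8. The partial genes were Col4a3, Col18a1, Col19a1, Lama1, Lamc3, Adamts19 and Adamtsl2, and the lost genes were Col6a3, Col6a6, Adamts13 and Adamts18. A further 20 genes, with 10.2% of all genes in the same position, were marked in H3WT DMSO by replicate 2 alone. They were Col4a4, Col6a2, Col6a4, Col6a5, Col7a1, Col8a1, Col11a2, Col23a1, Col24a1, Col25a1, Col26a1, Lamb1, Adamts9, Adamts15, Adamts16, Adamts17, Adamts20, Adamtsl1, Adamtsl3 and Adamtsl5. The remaining 38 genes had no H3K27me3 peak at either end in any list.

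**Figure D2:**
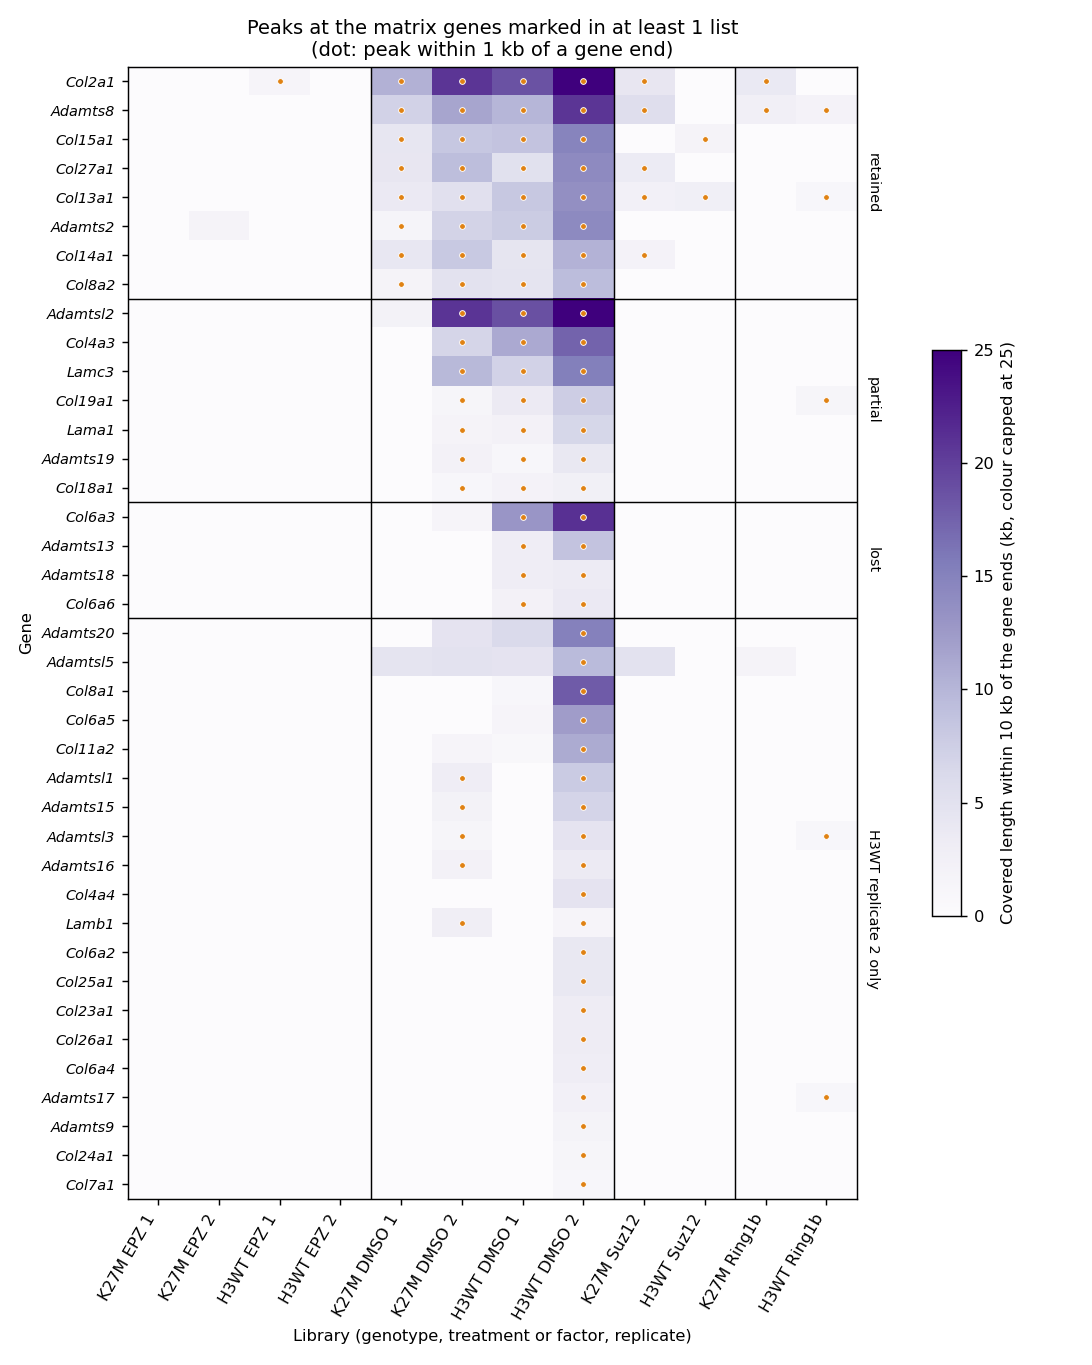
Covered length within 10 kb of the gene ends (kb, colour, capped at 25) for the 39 matrix genes marked in at least 1 list (rows) in the 12 libraries (columns), with an orange dot where a peak lay within 1 kb of a gene end and lines between the retained, partial and lost genes and those marked in H3WT replicate 2 only. Every dot of K27M DMSO replicate 1 recurs in the other 3 DMSO columns of H3K27me3, and in the 4 EPZ columns Col2a1 alone carries a dot.

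Promoters with the mark and without it are shown for a few genes so that their CpG content can be read beside the peaks. The bases are the 250 before the transcription start in the RefSeq promoter table of GRCm38.p6, read 5′ to 3′ on the gene's strand, and capitals mark each CpG. Col13a1, a transmembrane collagen of the neuromuscular junction, Col15a1, a collagen of the basement membrane zone, Col27a1, a fibrillar collagen of cartilage, and Adamts2, the protease that removes the amino-terminal propeptide of procollagens, were retained. Adamts1, a protease of aggrecan and versican, and Col1a2, a chain of the type I collagen of bone, skin and tendon, had no peak within 10 kb of an end in any list. The windows were chr10:61979109-61979358 (minus strand) for Col13a1, chr4:47207762-47208011 (plus) for Col15a1, chr4:63215162-63215411 (plus) for Col27a1, chr11:50601835-50602084 (plus) for Adamts2, chr16:85803114-85803363 (minus) for Adamts1 and chr6:4505368-4505617 (plus) for Col1a2.
Col13a1: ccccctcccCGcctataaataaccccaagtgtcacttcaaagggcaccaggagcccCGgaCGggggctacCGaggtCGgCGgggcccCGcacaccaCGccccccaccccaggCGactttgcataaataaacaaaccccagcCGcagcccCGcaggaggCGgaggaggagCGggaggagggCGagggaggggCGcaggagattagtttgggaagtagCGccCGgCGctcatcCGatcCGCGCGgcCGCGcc
Col15a1: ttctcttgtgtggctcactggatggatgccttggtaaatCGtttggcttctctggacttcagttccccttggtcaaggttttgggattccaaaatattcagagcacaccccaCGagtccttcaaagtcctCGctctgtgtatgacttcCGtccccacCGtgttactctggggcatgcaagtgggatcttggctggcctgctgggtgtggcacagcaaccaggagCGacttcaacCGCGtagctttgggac
Col27a1: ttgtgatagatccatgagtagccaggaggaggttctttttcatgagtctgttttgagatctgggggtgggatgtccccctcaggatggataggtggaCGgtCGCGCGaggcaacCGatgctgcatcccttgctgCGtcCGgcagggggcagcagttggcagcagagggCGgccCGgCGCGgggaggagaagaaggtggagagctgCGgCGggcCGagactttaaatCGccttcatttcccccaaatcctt
Adamts2: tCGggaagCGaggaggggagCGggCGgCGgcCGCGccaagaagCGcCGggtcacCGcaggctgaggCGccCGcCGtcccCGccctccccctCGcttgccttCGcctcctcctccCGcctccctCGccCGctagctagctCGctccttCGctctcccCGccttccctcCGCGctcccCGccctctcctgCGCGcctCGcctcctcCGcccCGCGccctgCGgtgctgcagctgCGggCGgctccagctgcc
Adamts1: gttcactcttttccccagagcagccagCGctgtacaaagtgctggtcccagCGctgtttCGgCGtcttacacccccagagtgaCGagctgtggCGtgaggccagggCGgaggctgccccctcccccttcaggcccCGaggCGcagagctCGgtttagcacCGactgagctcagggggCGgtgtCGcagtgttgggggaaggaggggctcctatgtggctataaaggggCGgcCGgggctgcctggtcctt
Col1a2: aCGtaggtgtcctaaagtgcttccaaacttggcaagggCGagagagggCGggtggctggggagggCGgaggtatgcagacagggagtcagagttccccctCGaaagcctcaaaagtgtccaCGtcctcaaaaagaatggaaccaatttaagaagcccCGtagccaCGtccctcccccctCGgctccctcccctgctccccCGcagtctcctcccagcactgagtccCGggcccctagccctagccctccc

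These 250 bases held 24 CpGs in Col13a1, 8 in Col15a1, 15 in Col27a1 and 34 in Adamts2, against 15 in Adamts1 and 11 in Col1a2. The retained promoters therefore spanned the values of the unmarked pair, and Col15a1 lay below both. With the 50 bases after the start added, the windows of Col13a1, Col15a1 and Col27a1 lay 100% under a peak in all 4 DMSO lists. That of Adamts2 lay 100% under a peak in 3 of the lists and 0% in K27M replicate 1, whose 1.50 kb peak began 219 bp inside the gene.

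Over the 52 matrix genes with a promoter in the table, the median number of CpGs in the 300 bases was 29 for 5 retained, 8 for 3 partial and 8.5 for 4 lost genes. It was 16.5 for the 16 genes marked in H3WT replicate 2 only and 9.5 for the 24 without a gene-end peak. The same medians over all genes were 20, 15, 10, 7 and 14. In both sets the retained class had the highest median, but 5 promoters with 8 to 41 CpGs describe it loosely, and no test was made. Classes rest on a peak near either gene end, so a promoter in a marked class need not lie under a peak. Those of Col18a1, Adamts9 and Col23a1, for instance, lay 0% under a peak in all 4 DMSO lists. The 6 letters GGGCGG, the core of the GC box bound by Sp1, were searched on both strands. They contain a CpG and so overlap the CpG count, and they were present in 65.4% of the matrix promoters and in 46.8% of all promoters of that length.

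**Figure D3:**
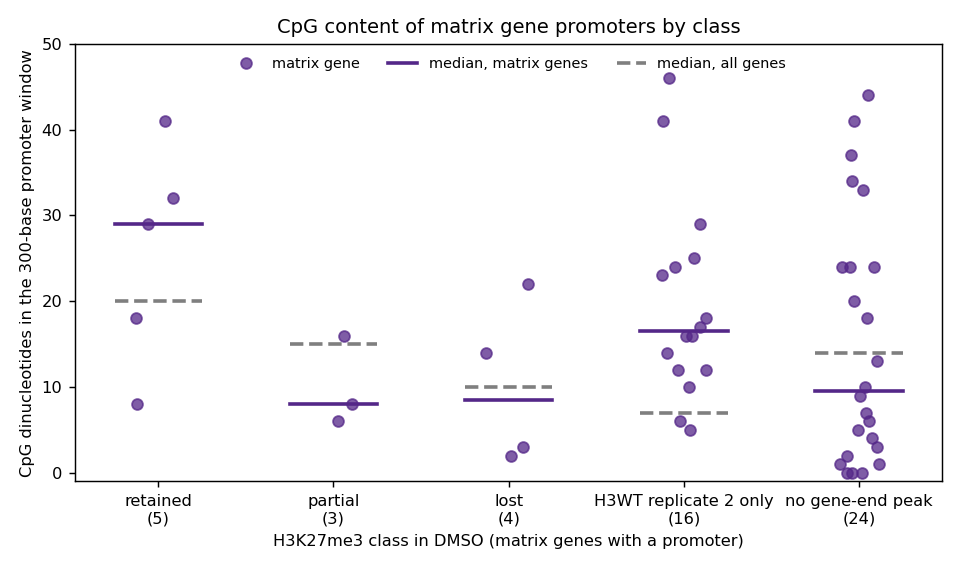
Number of CpG dinucleotides in the 300-base promoter window (vertical axis) of the 52 matrix genes with a promoter in the table, by H3K27me3 class in DMSO, with the median of the matrix genes (solid line) and of all genes in the class (dashed line). The retained genes had a median of 29 against 20 for all retained genes, and the genes without a gene-end peak ran from 0 to 44.

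Among the fibrillar collagens, 2 of 11 genes were H3WT-marked and both were retained. The value of a gene in a library is its covered length, which counts the kb that peaks occupy up to 10 kb from its start and its end. Col2a1 (chr15:97975602-98004724), the chief collagen of cartilage, had 10.39 and 20.73 kb in the K27M DMSO libraries, against 18.59 and 25.45 kb in the H3WT DMSO libraries. K27M was lower within each replicate number, at log2 ratios of -0.84 and -0.30, yet K27M replicate 2 exceeded H3WT replicate 1, so the genotypes overlapped. The gene itself lay under peaks over 22.4% and 54.4% of its length in K27M, against 47.4% and 74% in H3WT. Col27a1 (chr4:63214009-63334991) had 4.13 and 9.25 kb in K27M DMSO, against 5.08 and 14.12 kb in H3WT DMSO, and the groups overlapped as well.

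The type I and type III collagens, which make up the fibrils of most connective tissues, had no peak at a gene end. Col1a2 had 0 kb in all 12 lists and no peak inside the gene. Col3a1, which encodes the type III chain of skin and vessels, also had 0 kb near its ends in all 12 lists, but a peak of 2.30 kb inside the gene covered 6.03% of it in H3WT replicate 2. Col1a1, the other type I chain, had 0 kb in both K27M DMSO libraries, against 1.18 and 4.30 kb in H3WT DMSO. Peaks covered 0% of the gene in both K27M libraries, against 7% and 18.4% in H3WT. They lay inside the gene or outside the window, the nearest at 1081 bp from an end, so that it was the unmarked gene closest to the limit in H3WT replicate 2. Col11a2, a minor fibril collagen of cartilage, had 0 and 1.43 kb in K27M DMSO, against 0.83 and 10.98 kb in H3WT DMSO, and was marked in H3WT replicate 2 only.

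Network collagens form sheets in basement membranes and in the cornea. Col4a1 and Col4a2, the chains found in nearly all basement membranes, share a head-to-head promoter region on chromosome 8 and both had 0 kb in all 12 lists. Col4a3 and Col4a4, the paired chains of the kidney's filtration membrane, also lie head to head, on chromosome 1. Col4a3 had 0 and 6.77 kb in K27M DMSO, against 11.08 and 17.43 kb in H3WT DMSO. Its marked end in K27M replicate 2 and H3WT replicate 1 was the one that adjoins the next gene, Mff, and the shared end with Col4a4 carried a peak in H3WT replicate 2 alone. Over the gene's length, peaks covered 0% and 3.78% of Col4a3 in K27M, against 11.9% and 37.6% in H3WT. Col8a2, a short-chain collagen of the corneal endothelium's membrane, was retained, with 1.70 and 4.86 kb in K27M DMSO and 4.56 and 9.31 kb in H3WT DMSO. The K27M and H3WT values of Col8a2 overlapped, and those of Col4a3 did not.

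Of the 9 FACIT collagens, which attach to the surface of fibrils, 7 had no gene-end peak in any H3K27me3 list. Over all genes, 21.1% had such a peak in at least 1 of these lists, so the subfamily lay near all genes. Col14a1 (chr15:55307644-55520803), a partner of type I collagen fibrils, was retained, with 4.06 and 8.06 kb in K27M DMSO, against 4.44 and 10.31 kb in H3WT DMSO. It had the smallest mean difference of the 10 matrix genes with cover in all 4 lists, at -0.24 on the log2 scale. Col19a1 was partial, with 0 and 1.35 kb in K27M DMSO, against 3.60 and 7.58 kb in H3WT DMSO. Its neighbour Col9a1, 4.9 kb away, was unmarked in all 4 lists.

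The transmembrane and multiplexin collagens included 3 H3WT-marked genes. Col13a1 (chr10:61838234-61979206) had 3.66 and 5.27 kb in K27M DMSO, against 8.11 and 13.60 kb in H3WT DMSO. Col15a1 (chr4:47207655-47313167) had 4.28 and 8.23 kb in K27M DMSO, against 8.64 and 14.75 kb in H3WT DMSO. For both genes the K27M and H3WT values did not overlap, and the peaks at the promoters shown above were wider in H3WT within each replicate number. Col18a1, the source of the fragment endostatin, was partial, with 0 and 1.11 kb in K27M DMSO and 1.94 and 2.45 kb in H3WT DMSO.

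Of the 9 collagens grouped here as microfibrillar and anchoring, with Col26a1 and Col28a1 placed among them, 0 were marked in either K27M DMSO library. In H3WT DMSO, 2 were marked in replicate 1 and 7 in replicate 2. Over all genes the shares were 4.62% and 10% in K27M, against 10.7% and 20.8% in H3WT, so 0 of 9 in K27M is close to them. Col6a3, which encodes the large chain of type VI microfibrils, had 0 and 1.37 kb in K27M DMSO, against 12.95 and 21.19 kb in H3WT DMSO. Peaks covered 46.4% and 64.4% of this 77.1 kb gene in H3WT, against 0% in both K27M libraries, and the 1.37 kb in K27M replicate 2 lay outside the gene. Col6a6, another type VI chain, was lost too, with 0 kb in both K27M libraries, against 2.22 and 3.67 kb in H3WT DMSO. Its neighbours Col6a5 and Col6a4 had 12.22 and 3.03 kb in H3WT replicate 2, at most 1.40 kb in H3WT replicate 1 and 0 kb in K27M. For Col6a3 and Col6a6 the genotypes did not overlap, and the difference between the subfamilies was not tested.

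Of the 11 laminins, 8 had no gene-end peak in any H3K27me3 list, where 21.1% of all genes had one in at least 1 list. Only 2 laminins were H3WT-marked, and 0 of these were retained, where 42.8% of all H3WT-marked genes were. Lama1, the alpha chain of the laminin of early basement membranes, had 0 and 1.60 kb in K27M DMSO, against 2.10 and 6.63 kb in H3WT DMSO. Lamc3 had 0 and 9.75 kb in K27M DMSO, against 7.12 and 15.27 kb in H3WT DMSO. Lamb1, a beta chain of the same early laminin, had 0 and 2.84 kb in K27M DMSO, against 0 and 1.42 kb in H3WT DMSO, all of it at the transcription start. Lamb1 was the 1 matrix gene with more cover in K27M than in H3WT within replicate 2, and both lists of replicate 1 were empty there. Lama2, the alpha chain of muscle basement membrane, had 1.95 kb in H3WT replicate 2 and Lamc1, the most widely used gamma chain, 0.46 kb, with 0 kb in the other 11 lists and no peak at an end. Lamb3, a chain of the laminin of skin, had peaks inside the gene in 3 lists but none at its outer coordinates, so the rule left it unmarked. Its promoter in the table, chr1:193301744-193302043, lies inside those coordinates and lay 17% under a peak in H3WT replicate 2. Peaks of K27M replicate 2 and H3WT replicate 1 began at 193302063 and 193302701, less than 1 kb beyond it. These peaks thus lay near the annotated start, which the rule did not use.

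Of the 19 Adamts proteases, 5 were H3WT-marked. Adamts8 (chr9:30942562-30963838) had 7.08 and 11.50 kb in K27M DMSO, against 10.01 and 20.74 kb in H3WT DMSO, and the genotypes overlapped. Adamts2 (chr11:50602085-50807573) had 1.50 and 6.99 kb in K27M DMSO, against 7.76 and 14.19 kb in H3WT DMSO, and they did not overlap. The K27M replicate 1 peak beside the Adamts2 promoter shown above was, at 219 bp, the farthest from a gene end among the marked matrix genes of that list. Adamts13, the protease of von Willebrand factor, had 0 kb in both K27M libraries, against 3.00 and 8.67 kb in H3WT DMSO. Adamts18 had 0 kb in both K27M libraries, against 3.06 and 3.38 kb in H3WT DMSO. Adamts19 was partial, with 0 and 2.13 kb in K27M DMSO and 1.00 and 4.0 kb in H3WT DMSO. Adamts1 and Adamts5, both proteases of the proteoglycan aggrecan, had 0 kb in all 12 lists.

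The widest cover of a member in any list lay at an Adamts-like gene. Adamtsl2, which encodes a protein of fibrillin microfibrils, had 1.98 and 20.82 kb in K27M DMSO, against 18.81 and 34.08 kb in H3WT DMSO. Part of it lay over the ends of the neighbours Mymk and Fam163b, and the peak in K27M replicate 1 was 1695 bp from the gene, the nearest outside the window in that list. Adamtsl5 had 4.50 and 4.88 kb in K27M DMSO, against 4.63 and 9.54 kb in H3WT DMSO, mostly under a peak beside Plk5, and was marked in H3WT replicate 2 only.

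The genotype difference was summarised over the 52 matrix genes with cover in any DMSO list of H3K27me3. Both K27M values lay below both H3WT values at 16 of 52, where 25.4% of all genes did. The labels do not say that libraries of the same replicate number belong together, so setting them side by side by number is a description only. Set so, cover was lower in K27M within both numbers at 27 genes, where 42.8% of all genes with cover were, and higher within both at 0, where 1.11% were. With 2 libraries against 2, the smallest p that an exact two-sided permutation test can give is 0.333, so no gene could pass 0.05. Without replicate 1 of either genotype, 51 matrix genes and 8205 of all genes were lower in K27M.

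For the 10 genes with cover in all 4 lists, K27M was lower within both replicate numbers at all 10, where 79.1% of such genes were, and higher within both at 0, where 6.32% were. Their median log2 ratio of K27M over H3WT was -0.93 in replicate 1 and -0.85 in replicate 2, against -0.73 and -0.37 for all 1376 such genes. The mean of both log2 ratios does not depend on which libraries are matched, and its median was -0.80, against -0.60 for all such genes. This mean was lowest at Adamtsl2 (-1.98), Adamts2 (-1.70), Col13a1 (-1.26) and Col8a2 (-1.18), and nearest to 0 at Col14a1 (-0.24), Col27a1 (-0.45), Adamtsl5 (-0.50) and Col2a1 (-0.57). These lengths moved with the size of the lists, which covered less in K27M within each replicate number, and the part of list size in the difference was not tested per gene.

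**Figure D4:**
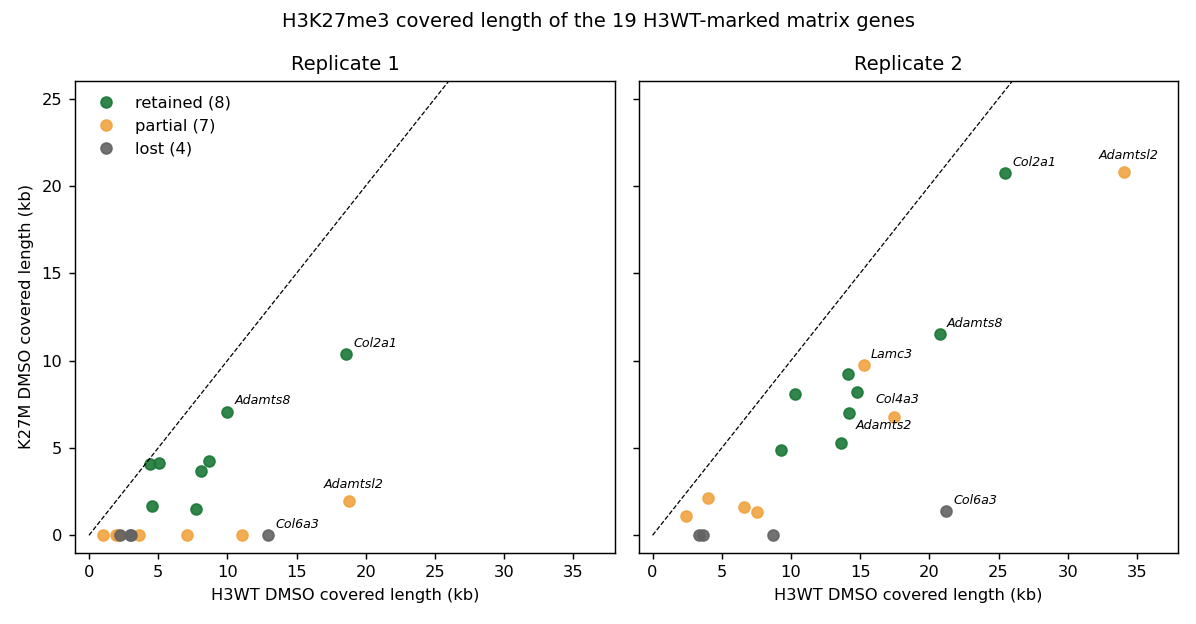
Covered length (kb within 10 kb of the gene ends) of the 19 H3WT-marked matrix genes in K27M DMSO (vertical axis) against H3WT DMSO (horizontal axis), by replicate number, coloured by class, with a dashed line of equality. All 19 points lie below the line in both panels, and Col6a3 lies at 0 and 1.37 kb in K27M against 12.95 and 21.19 kb in H3WT.

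A pair of lists with nearly equal covered length on the autosomes allowed a closer look at which genes were marked. They differed in make-up, as K27M replicate 2 had 9368 of its 17980 peaks on the autosomes and H3WT replicate 1 had 11053 of 13358. K27M replicate 2 covered 41.6 Mb and marked 20 matrix genes, against 39.2 Mb and 19 genes in H3WT replicate 1. They shared 15 genes, which is 75% of the K27M list and 78.9% of the H3WT list. Over all genes the same lists shared 1776, which is 85.9% of the K27M list and 80.6% of the H3WT list. The 5 found in K27M replicate 2 alone were Lamb1, Adamts15, Adamts16, Adamtsl1 and Adamtsl3, and the 4 found in H3WT replicate 1 alone were Col6a3, Col6a6, Adamts13 and Adamts18. No collagen was among the first 5, and each of these had a peak in H3WT replicate 2 as well. The other 4 are the lost genes named above, and so add no separate result. Their identity follows from the containment of each genotype's replicate 1 list in its replicate 2 list. With 1 library on each side, the comparison has no replicate check. When the 4 DMSO lists were instead cut to their widest peaks, at the 13 Mb of the smallest, Col2a1 was the 1 matrix gene left in K27M replicate 2, where 1.77% of all genes were marked. Col2a1 was also the 1 left in H3WT replicate 1, where 2.18% were, and 0 were left in H3WT replicate 2, where 1.18% were. On these lists 0 matrix genes were H3WT-marked, where 0.982% of all genes were, so 0 could be retained or lost, where 91.1% and 1.97% of H3WT-marked genes were. K27M replicate 1, the smallest list, was not cut and still marked 8 matrix genes, where 4.62% of all genes were marked. In the lists that were cut, the peaks of the matrix genes were thus mostly narrower than those kept.

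Under EPZ the matrix genes were almost free of called peaks. No matrix gene was marked in either K27M EPZ library (0 of 77, exact 95% upper limit 4.68%), where 0.532% and 0.881% of all genes were. In H3WT EPZ, 1 of 77 was marked in replicate 1 and 0 in replicate 2, where 0.91% and 0.798% of all genes were. In both libraries of a genotype, 0 matrix genes were marked in K27M EPZ and 0 in H3WT EPZ, where 0.518% and 0.784% of all genes were. The 1 gene was Col2a1, with a peak of 1.45 kb at chr15:98002628-98004075, just inside its upper coordinate end. Of the 8 retained matrix genes 1 was thus marked in any EPZ list (12.5%, exact 95% interval 0.316 to 52.7%), where 21.5% of all retained genes were, and of the 19 H3WT-marked ones 1 was, where 9.19% of all H3WT-marked genes were. Adamts2 had 1.75 kb in K27M EPZ replicate 2, under a peak beyond its far end and not at the promoter. The other 50 of the 52 genes with any cover had 0 kb in all 4 EPZ libraries.

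The 4 EPZ libraries were compared with the 4 DMSO libraries of H3K27me3 by exact two-sided permutation tests of covered length. P-values were adjusted by the Benjamini-Hochberg method over 8592 genes. Each side pooled both genotypes, and the 70 relabellings ignored genotype. Permutation within genotype was not run, so these p-values take no account of the genotype difference. All 4 EPZ values lay below all 4 DMSO values at 9 of 52 matrix genes, where 15.8% of all genes did. Each of the 9 had an exact permutation p of 0.0286, the smallest these free relabellings can give, and an adjusted p of 0.181. At the adjusted threshold of 0.05, 0 matrix genes and 0% of all 8592 genes were called, with 1354 genes of all at an unadjusted p below 0.05. Leaving out any 1 EPZ library lowered that number to between 566 and 585 genes of all, and to 3 of the matrix genes. The count of genes with every EPZ value below every DMSO value moved little in these settings. It was 9 to 10 matrix genes and 1354 to 1362 of all genes. The 9 genes of the full comparison were Col2a1, Col8a2, Col13a1, Col14a1, Col15a1, Col27a1, Adamts8, Adamtsl2 and Adamtsl5. Col2a1 averaged 0.36 ± 0.72 kb in EPZ and 18.79 ± 6.29 kb in DMSO (SD, n = 4 each). Adamts8 averaged 0 kb in EPZ and 12.33 ± 5.90 kb in DMSO (SD, n = 4 each). These means and SDs pool both genotypes. Adamts2, at an exact permutation p of 0.0571, differed from the 9 because of the peak beyond its far end. Without K27M DMSO replicate 1, the smallest list in DMSO, 20 matrix genes and 3084 of all genes had every EPZ value below every DMSO value.

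PRC2 itself was called at few matrix genes. Suz12 peaks marked 5 of 77 in K27M (6.49%, exact 95% interval 2.14 to 14.5%) and 2 of 77 in H3WT (2.6%, 0.316 to 9.07%), where 2.81% of all genes were marked in K27M and 1.79% in H3WT. In either genotype 6 of 77 were marked, where 3.25% of all genes were. The 6 were all retained genes, which is 6 of 8, where 64.2% of all retained genes had a Suz12 peak. Col13a1 carried Suz12 in both genotypes, over 2.30 kb in K27M and 2.65 kb in H3WT, and 1.35% of all genes did so. Col2a1 (4.16 kb), Adamts8 (5.50 kb), Col27a1 (3.43 kb) and Col14a1 (1.90 kb) carried it in K27M and had none in H3WT, as 1.46% of all genes did. Col15a1 had none in K27M and 1.70 kb in H3WT, a position that 0.436% of all genes shared. Each of these peaks lay 100% under an H3K27me3 peak in all 4 DMSO lists. The K27M Suz12 list covered 3.95 Mb, against 2.05 Mb in H3WT, and with 1 library per genotype there is no test. At transcription starts only, among genes with a strand, Suz12 marked 2 matrix genes in K27M and 2 in H3WT, where 392 and 255 of all genes were marked. Col2a1, Adamts8 and Col14a1 have no strand in the promoter table and drop out of this count by construction.

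Ring1b was called at a similar number of matrix genes. It marked 2 of 77 in K27M (2.6%) and 5 of 77 in H3WT (6.49%), where 5.82% of all genes were marked in K27M and 4.96% in H3WT. With peaks of at least 3 kb the order turned, to 1 gene in K27M and 0 in H3WT, where 350 and 251 of all genes were marked. In either genotype 6 of 77 were marked, where 6.86% of all genes were. Adamts8 carried Ring1b in both genotypes, over 2.56 kb in K27M and 1.91 kb in H3WT, as 3.93% of all genes did. Col2a1 carried it in K27M alone, over 3.75 kb, as 1.89% of all genes did. Col13a1 (1.09 kb), Col19a1 (1.27 kb), Adamts17 (1.03 kb) and Adamtsl3 (1.03 kb) had none in K27M and a peak in H3WT, where 1.04% of all genes did. These 4 widths were near 1001 bp, the narrowest peak in the lists. Col2a1, Adamts8 and Col13a1 were the retained genes with Ring1b, 3 of 8, where 55% of all retained genes had it. At these 3 genes the Ring1b peaks lay 100% under H3K27me3 peaks in all 4 DMSO lists, as the maps of called peaks show for each. At the other 3 genes they did not. The Adamts17 peak lay 0% under H3K27me3 in both K27M libraries, against 0% and 46.1% in H3WT. The Adamtsl3 peak lay 0% and 33.7% under it in K27M, against 0% and 100% in H3WT, and the Col19a1 peak 0% and 51.5% in K27M, against 100% in both H3WT libraries.

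**Figure D5:**
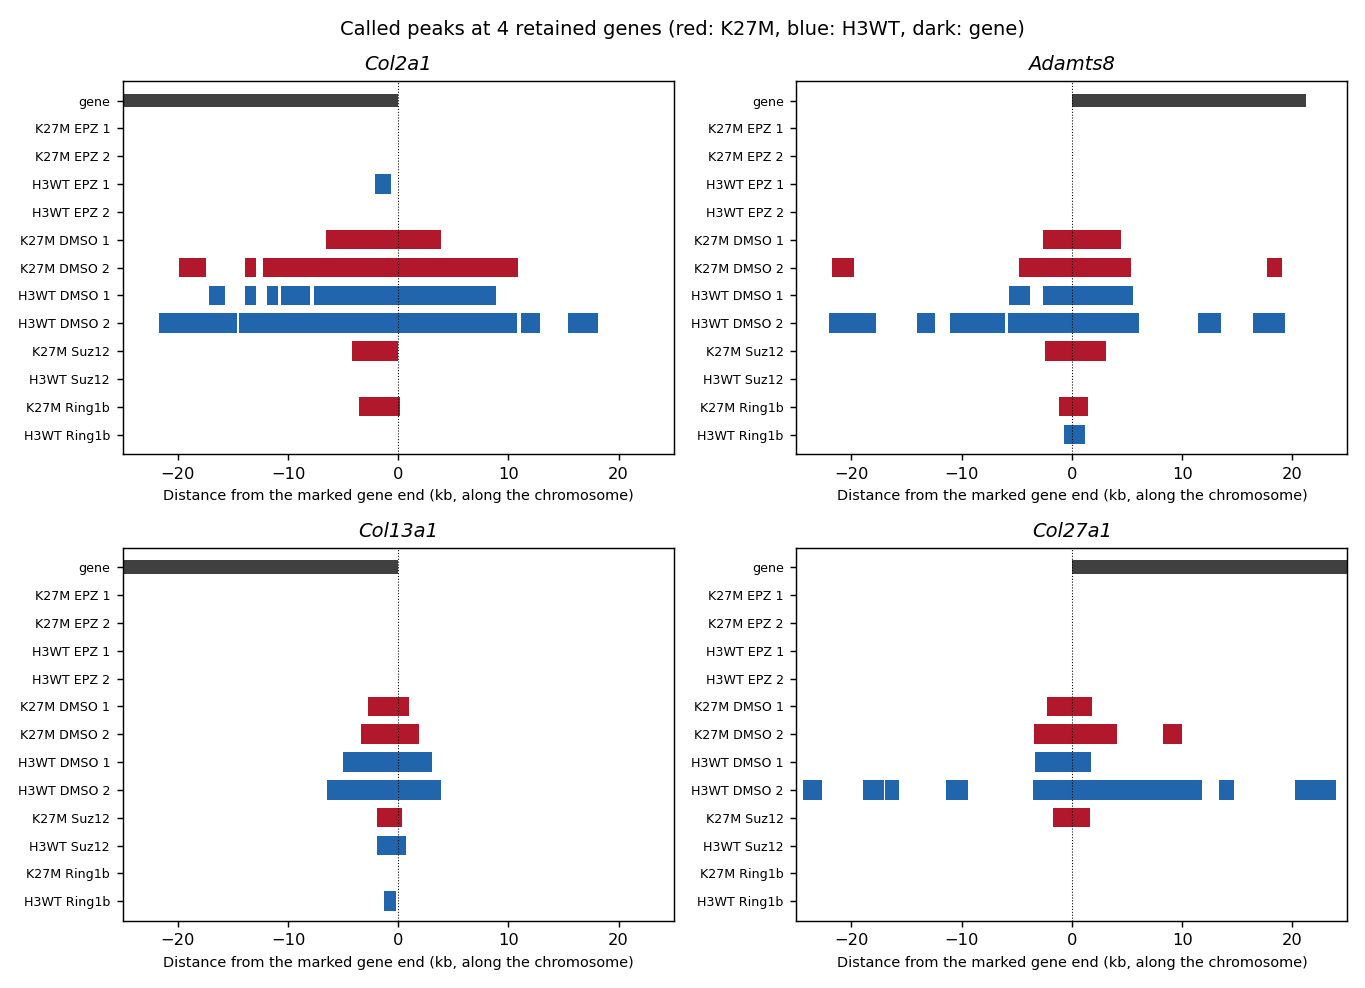
Called peaks within 25 kb of the marked gene end (horizontal axis, distance in kb along the chromosome) at Col2a1, Adamts8, Col13a1 and Col27a1 in the 12 libraries (rows), with K27M peaks in red, H3WT peaks in blue and the gene as a dark bar. Each of the 4 DMSO libraries of H3K27me3 has a peak over the gene end, with further peaks away from it at Col2a1, Adamts8 and Col27a1. The EPZ rows are empty but for the 1.45 kb peak of H3WT replicate 1 at Col2a1.

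Where the promoter table gave a strand, the marked end was mostly the upstream one, taken as the gene's outer coordinate on that side. This held for 5 of 5 marked matrix genes in K27M replicate 1 and 10 of 10 in K27M replicate 2, against 12 of 12 in H3WT replicate 1 and 26 of 28 (92.9%) in H3WT replicate 2. Over all genes the shares were 91% and 88.8% in K27M, against 87.1% and 83.5% in H3WT. The upstream end can lie away from the start of transcription in the promoter table. The upstream end of Col18a1 was counted here, yet its promoter lay 0% under a peak in every DMSO list of H3K27me3. The promoter of Adamts20, chr15:94404301-94404600, lies inside the gene and lay 57% under a peak in H3WT replicate 2. A peak of H3WT replicate 1 ended at 94404168, less than 1 kb from it, yet the rule marked Adamts20 in H3WT replicate 2 only, at its far end.

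Genes that act beside these families were examined as further lists of matrix proteoglycans, glycoproteins, collagen enzymes, receptors and other proteases. Of 64 such genes, 13 (20.3%) were H3WT-marked, where 24.7% of the collagen, laminin and Adamts genes and 10.6% of all genes were. The 13 were 6 retained, 3 partial and 4 lost, where all H3WT-marked genes split into 42.8%, 38.4% and 18.8%. In any EPZ list 0 of the 64 were marked, where 1.07% of all genes were. Acan, which encodes the cartilage proteoglycan aggrecan, was retained like Col2a1, with 4.51 and 9.09 kb in K27M DMSO, against 10.52 and 19.77 kb in H3WT DMSO. P4ha2, a prolyl hydroxylase that stabilises the collagen helix, had 20.25 and 30.10 kb in K27M DMSO, against 29.54 and 36.69 kb in H3WT DMSO. Lox, the enzyme that crosslinks collagen, was partial, with 0 and 4.79 kb in K27M DMSO, against 11.61 and 28.73 kb in H3WT DMSO. Reln, a glycoprotein that guides migrating neurons, was higher in K27M within both replicate numbers, with 11.68 and 16.17 kb in K27M DMSO, against 11.08 and 15.52 kb in H3WT DMSO. None of these genes could be called between genotypes with 2 libraries each, and none was called between EPZ and DMSO.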

How the data were processed

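Peak lists of 12 libraries were analysed. Per the submitters' processing notes, reads were aligned with Bowtie 1.1.2 to mm10. Not given in the sources used here are the peak caller, its threshold, its control and the read depth. Each library has its own deposited list, which let replicates be compared. The deposited score column was 0 in all 100144 lines, so no score was used, and each peak entered by the positions the authors deposited. A list shows where a threshold was passed, not how much mark was present, and a deeper library can yield more and wider peaks.

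From these lists, 21 lines that touched a neighbour in the same list were merged. Gene positions came from RefSeq GRCm38.p6, whose chromosomes are those of mm10, and strand and promoters from its promoter table, which held 52 of the 77 genes. Shares carry exact Clopper-Pearson 95% intervals. Python 3.11.15, numpy 2.4.6, pandas 2.3.3 and scipy 1.17.1 were used, and the permutation test was tested on simulated data. Genes with values in every library were those retained, lost or gained, those with a Suz12 or Ring1b peak at an end, those with the lowest and highest genotype ratios, and 12 always named. Partial genes and a few neighbours were named after their values were seen. The members and lists were chosen with earlier results of these data known. The alternatives were other windows, the start of transcription, the whole gene, wider peaks, a larger overlap, lists of equal covered length, left-out replicates and a replicate block.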

Additional observations from a re-analysis of the deposited data

How the results depend on the processing

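Read depth is unknown and the scores are 0, so covered length is the one measure of size, and it moves with how much each library yielded. Counts of matrix genes stayed within 1.5 times of the reported ones with windows of 5 kb and with an overlap of 500 bp. Limiting genes to the start of transcription, which leaves out by construction the 25 genes without a strand, gave 5 retained genes, 2 with Suz12 in K27M and 0 with Ring1b in K27M. Over all genes these counts were 625, 392 and 920, against 936, 581 and 1203 by the main rule. Over the whole gene interval, 30 genes were H3WT-marked and 9 were lost. Of all genes 2880 and 584 were, against 2187 and 412 by the main rule. With peaks of at least 3 kb, Suz12 marked 3 genes in K27M and 0 in H3WT, Ring1b 1 in K27M and 0 in H3WT, and 17 genes were lower in K27M within both replicate numbers. Of all genes, Suz12 then marked 296 in K27M and 167 in H3WT, Ring1b 350 and 251, and 1849 were lower in K27M. When the DMSO lists were cut to their widest peaks at the covered length of the smallest, 0 matrix genes were H3WT-marked, 0 retained and 0 lost, where 203, 185 and 4 of all genes were. This keeps only peaks of at least 16.61 kb in K27M replicate 2, against 9.90 and 32.29 kb in H3WT, which the peaks at most matrix genes do not reach. K27M replicate 1, the smallest list, was not cut and kept its 8 matrix genes. Leaving out replicates gave 19 to 39 H3WT-marked, 8 to 20 retained and 11 to 19 lost genes, 0 to 1 marked in H3WT EPZ, and 27 to 51 lower in K27M, with 51 both without K27M DMSO replicate 1 and without H3WT DMSO replicate 1. Of all genes, the same ranges were 2204 to 4305 H3WT-marked, 936 to 2044 retained, 1268 to 2261 lost, 165 to 188 marked in H3WT EPZ, and 3790 to 8205 lower in K27M. EPZ lay below DMSO without overlap at 9 to 20 matrix genes and 1354 to 3084 of all genes, with the most without K27M DMSO replicate 1. No alternative called a gene between EPZ and DMSO, with smallest adjusted p-values from 0.0803 to 0.436 over all settings of the exact permutation test. With labels permuted within replicate number (the replicate block), 0 genes were called and the smallest exact p was 0.0556, or 0.5 between genotypes. No setting permuted EPZ and DMSO labels within genotype. The labels give only a number, and deviations of same-numbered libraries correlated at 0.35 between K27M and H3WT in DMSO but at -0.45 in EPZ, so the numbers were not taken to pair libraries, and values given within a replicate number are descriptions. Leaving out peaks shared with a neighbouring gene, chosen after seeing the data, gave 17 H3WT-marked genes, without Col4a3 and Adamtsl2, and again 8 retained and 4 lost.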
